A study of Oryza sativa with 3 samples.

Results

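The genes described here are histone genes and genes of enzymes that write or remove chromatin marks, measured in the shoot tip of young rice seedlings. They were chosen by name from a platform annotation and the RefSeq gene table of assembly ASM3414082v1: a gene was taken when its symbol or a synonym, without the prefix Os, began with H2A, H2B, HDAC, HDA, HDT, JMJ, SDG, CMT, MET1, DRM or CHR, the short forms HDA, CMT, DRM and CHR being followed by a digit. The rule uses names and no expression value, though it was set with earlier results of these data known. It gave 16 of the 17905 genes that have a probe set, in 5 families: 5 histone H2B genes, 5 DNA methyltransferases, 2 SET domain histone methyltransferases, 3 JmjC histone demethylases and 1 histone deacetylase. No histone H2A and no CHR chromatin remodelling gene matched. The annotation lists no gene for 34727 of the 57258 non-control probe sets, and the rule finds genes by name only. These counts are therefore not the number of genes of each family on the array. The RefSeq table holds 22 genes with such names, and the remaining 6, the H2B genes H2B.2, H2B.3, H2B.4, H2B.9 and H2B1 and the chromomethylase CMT1, were paired with no probe set and are not analysed here.

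RNA came from shoot tips of Hitomebore, a temperate japonica cultivar, in 3 samples that the labels call biological replicates of the single group CK shoot. What CK abbreviates is not spelled out, and no mutation, transgene or treatment is given for these samples. Seeds germinated for 2 days in darkness at 28 °C, and seedlings then grew at 26 °C under days of 16 h and nights of 8 h until harvest about 48 h later. The growth protocol mentions a pair of genotypes, of which Hitomebore alone is analysed here, so the arrays hold no contrast between conditions. The question they can answer is which of these genes gave signal above background in the tissue, and how closely the samples agreed.

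DNA in the nucleus is wrapped around octamers of the core histones H2A, H2B, H3 and H4, and dividing cells make new histones mainly while they replicate their DNA. Plants methylate cytosines with several enzyme families: MET1 copies methylation at CG sites after replication, chromomethylases such as CMT3 maintain it at CHG sites, where H is any base but G, and DRM enzymes act with small RNAs to set it de novo. SET domain proteins methylate histone lysines, JmjC proteins take such methyl groups off, and deacetylases remove acetyl groups. These families are among those that affect which genes stay accessible. Neither chromatin marks nor accessibility were measured here.

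Values are log2 probe set signals. Brightness depends on the affinity of the probes as well as on RNA, so a difference in signal between genes is not read as a difference in RNA. The ceiling of background is the highest of 17 Tag control probe sets on each array, which read 4.98, 4.88 and 4.97 on replicates 1, 2 and 3. Signal exceeded it on every array for 9 of 12 shoot and leaf marker genes, against 81.3% of all genes. It did not for OSH1, for DL, which read 4.96 on replicate 1, or for YAB7 (LOC9268430), below it throughout. Among 3 root transporter genes, signal exceeded it for LSI1 and NRAMP5 but not for LSI2, which lay below it throughout. These markers therefore do not tell shoot from root. The arrays differed in genes outside these families. On replicate 2 the endosperm genes RAG2, PROLAMIN, GLUA1 and GLUB5 read 9.22, 8.32, 6.61 and 6.63, with all values on the other arrays at 5.31 or less, and the meristem gene OSH1 read 3.73 against 6.25 and 6.47. On replicate 3 the control probe sets for 18S, 25S and 28S ribosomal RNA averaged 9.59, against 12.05 and 11.73. The part of these differences in the results below was not tested, and values without each array are given where they bear on a result.

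Nearly all of the genes gave signal above background in the shoot tip. Their median SD between the 3 samples was small, though slightly above that of all genes. On all arrays 15 of 16 lay above the ceiling, against 81.3% of all genes, and the remaining gene, the deacetylase HDAC3, lay below it on all arrays, as did 15.4% of all genes. The SD over the 3 arrays ranged from 0.07 to 0.36 log2, with a median of 0.14, where the median over all genes was 0.12. It was above the trend of SD with level for 11 of the 16 genes, and for 46.8% of all genes. In a test of each probe set's variance against the trend of variance with level (limma, Benjamini-Hochberg over 57258 probe sets), 0 of 16 genes passed an adjusted p of 0.05. The share that passed over all probe sets was 0.0%. At an unadjusted p under 0.05 it was 2.43% of probe sets and 1 of the 16 genes, MET1-2. With 3 arrays the test has 2 residual degrees of freedom, and it called no probe set of the whole table. A gene that missed the threshold is therefore not shown to be constant.

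**Figure D1:**
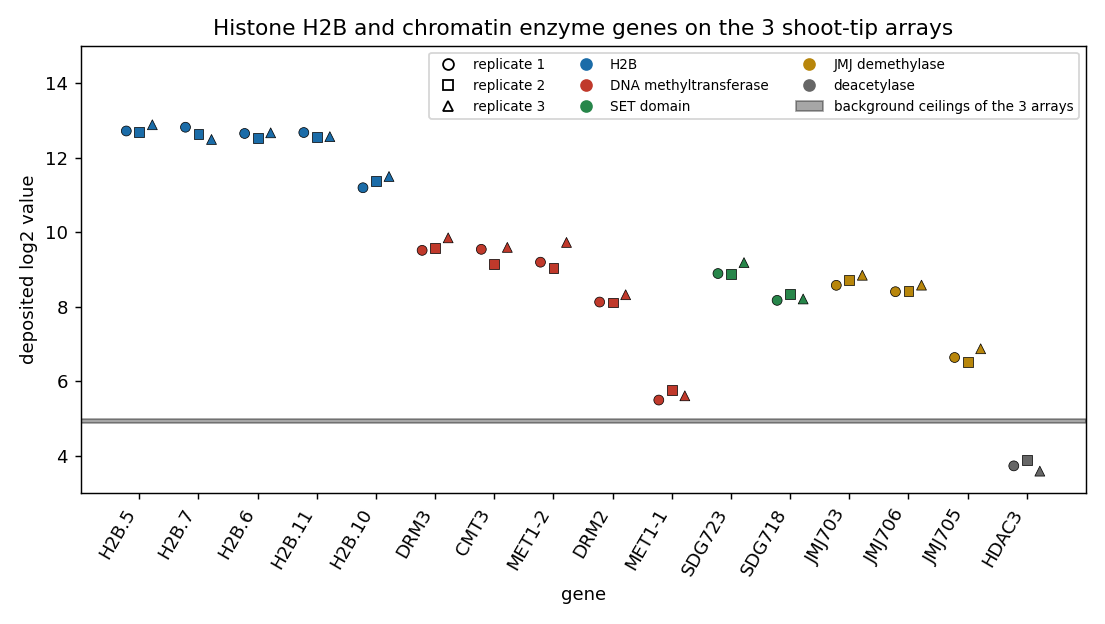
Deposited log2 value of each gene (vertical axis) on each of the 3 arrays (circle, square and triangle for replicates 1, 2 and 3), coloured by family. The grey band spans the background ceilings of the arrays, 4.88 to 4.98; HDAC3 alone lies under it, and the points of one gene lie within 0.68 log2 of each other.

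Histone H2B was far above background from every probe set. H2B.5 (LOC4324504) read 12.72, 12.68 and 12.89 on replicates 1, 2 and 3, a mean of 12.76 ± 0.11 (SD, n = 3). H2B.6 (LOC4324502) read 12.65, 12.53 and 12.67, a mean of 12.62 ± 0.08 (SD, n = 3), and H2B.11 (LOC4327384) 12.68, 12.55 and 12.57, a mean of 12.60 ± 0.07 (SD, n = 3). These 3 genes were each lowest on replicate 2, by at most 0.20 log2 against their highest array. The dimmest signal of any H2B gene on any array lay 6.22 log2 above that array's ceiling.

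The remaining H2B genes had opposite orders of arrays. H2B.7 (LOC4324500) read 12.82, 12.64 and 12.49, highest on replicate 1 and lowest on replicate 3, with a mean of 12.65 ± 0.16 (SD, n = 3). H2B.10 (LOC4324495) read 11.20, 11.38 and 11.50, lowest on replicate 1 and highest on replicate 3, with a mean of 11.36 ± 0.15 (SD, n = 3). The log2 ratio of H2B.10 to H2B.7 within an array was therefore -1.62, -1.25 and -0.99, a span of 0.63 log2 or 1.55-fold, the widest of the 10 pairs of H2B genes, while that of H2B.6 to H2B.11 spanned 0.13 log2, the narrowest. Neither gene's variance passed the test (limma, unadjusted p = 0.092 for H2B.7 and 0.17 for H2B.10, adjusted p = 0.94 for both). H2B.7 was read from a probe set ending in _x_at, a type whose probes may not be specific to 1 gene, and H2B genes are close copies of each other, so signal of any H2B probe set may include RNA of other H2B genes. In the RefSeq assembly H2B.10, H2B.7, H2B.6 and H2B.5 lie in this order in one stretch of a chromosome, with 5, 2 and 1 other genes between neighbours, and H2B.3 and H2B.4, which had no probe set, lie 22 genes before H2B.10, counted from H2B.4. H2B.11 lies on the same chromosome, 3506 genes away. The pair that differed most across arrays, H2B.7 and H2B.10, thus stand next to each other in the order of H2B genes.

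DNA methyltransferases of all 3 kinds, MET1, chromomethylase and DRM, were above the ceiling on all arrays, and MET1-2 and CMT3 had the widest ranges between samples of all 16 genes. MET1-2 (LOC4342575, also MET1B), a maintenance methyltransferase of CG sites, read 9.20, 9.05 and 9.73 on replicates 1, 2 and 3, a mean of 9.33 ± 0.36 (SD, n = 3). Replicate 3 was the high sample, and highest and lowest arrays differed 1.60-fold. A range above 0.5 log2 was found in MET1-2 alone among the 15 genes above the ceiling, against 10.1% of all genes above it. Its SD was 3.06 times the trend at its level (limma, unadjusted p = 0.037, adjusted p = 0.94). No probe set of the whole table passed the adjusted threshold, so missing it does not show MET1-2 to be constant.

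CMT3 (LOC4347954), the CHG chromomethylase, read 9.54, 9.14 and 9.60, a mean of 9.43 ± 0.25 (SD, n = 3). Here replicate 2 was the low sample, 0.43 log2 under the mean of the other arrays, which lay within 0.05 log2 of each other (limma, unadjusted p = 0.098, adjusted p = 0.94). The copies of MET1 differed in which array was high. MET1-1 (LOC4334435, also MET1A), the second rice MET1 gene, read 5.50, 5.76 and 5.62, lowest on replicate 1 and highest on replicate 2, with a mean of 5.63 ± 0.13 (SD, n = 3). It was the gene nearest to background among those above it, with 0.52 log2 between signal and ceiling on its closest array.

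The DRM genes had smaller ranges than MET1-2 and CMT3. DRM2 (LOC4331357), the rice counterpart of the Arabidopsis enzyme of RNA-directed DNA methylation, read 8.13, 8.12 and 8.33, a mean of 8.19 ± 0.12 (SD, n = 3). DRM3 (LOC4337721), whose Arabidopsis counterpart lacks catalytic activity, read 9.52, 9.59 and 9.85, a mean of 9.65 ± 0.18 (SD, n = 3). Both were highest on replicate 3, as were 52.5% of all genes above the ceiling. DRM3 had 3 probe sets that disagreed in level and in order: the second, ending in _s_at, read 7.99, 7.84 and 8.20, again highest on replicate 3, but the third read 5.16, 5.06 and 4.64, lowest on replicate 3, where it lay below the ceiling. The level of DRM3 therefore depends on the probe set, and its mean over all of them was 7.54.

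Both SET domain genes, writers of opposing histone marks, gave signal above the ceiling. SDG718 (LOC4332612, also EZ1), the Enhancer of zeste protein that writes the repressive mark H3K27me3 in a Polycomb complex, read 8.18, 8.34 and 8.21, a mean of 8.24 ± 0.09 (SD, n = 3). SDG723 (LOC4346464, also TRX1), a trithorax protein that writes the active mark H3K4me3, read 8.89, 8.88 and 9.19, a mean of 8.99 ± 0.18 (SD, n = 3). SDG718 was highest on replicate 2 and SDG723 on replicate 3, by 1.12-fold and 1.24-fold over their lowest arrays. The other SDG723 probe sets were dimmer: one read between 5.58 and 5.63 and the other between 3.27 and 3.53, below the ceiling on all arrays, so that the mean over its probe sets was 6.00.

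The JmjC demethylases JMJ703, JMJ705 and JMJ706 were above the ceiling on all arrays. Each was highest on replicate 3, as were 52.5% of all genes above the ceiling. JMJ703 (LOC4338043), which removes H3K4 methylation, read 8.58, 8.72 and 8.85, a mean of 8.71 ± 0.13 (SD, n = 3). JMJ706 (LOC4349499), an H3K9 demethylase known for its role in floral organs, read 8.41, 8.42 and 8.58, a mean of 8.47 ± 0.10 (SD, n = 3). These values are from a probe set ending in _x_at, as for H2B.7, whose probes may not be specific to 1 gene. The other JMJ706 probe set, not of that type, read 8.20, 8.34 and 8.38, in the same order of arrays and 0.17 lower on average. JMJ705 (LOC4324980), an H3K27 demethylase known from stress and defence responses, read 6.64, 6.51 and 6.88, a mean of 6.68 ± 0.19 (SD, n = 3). Their SDs were 0.72 to 1.05 times the trend at their levels.

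HDAC3 (LOC4328717, also HDA703), a class I histone deacetylase, read 3.74, 3.90 and 3.60 on replicates 1, 2 and 3. All of these values lay below the ceiling, the nearest by 0.98 log2, so they give an upper bound and no level or order of samples. It has 1 probe set, and a transcript that these probes bind poorly would read the same.

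**Figure D2:**
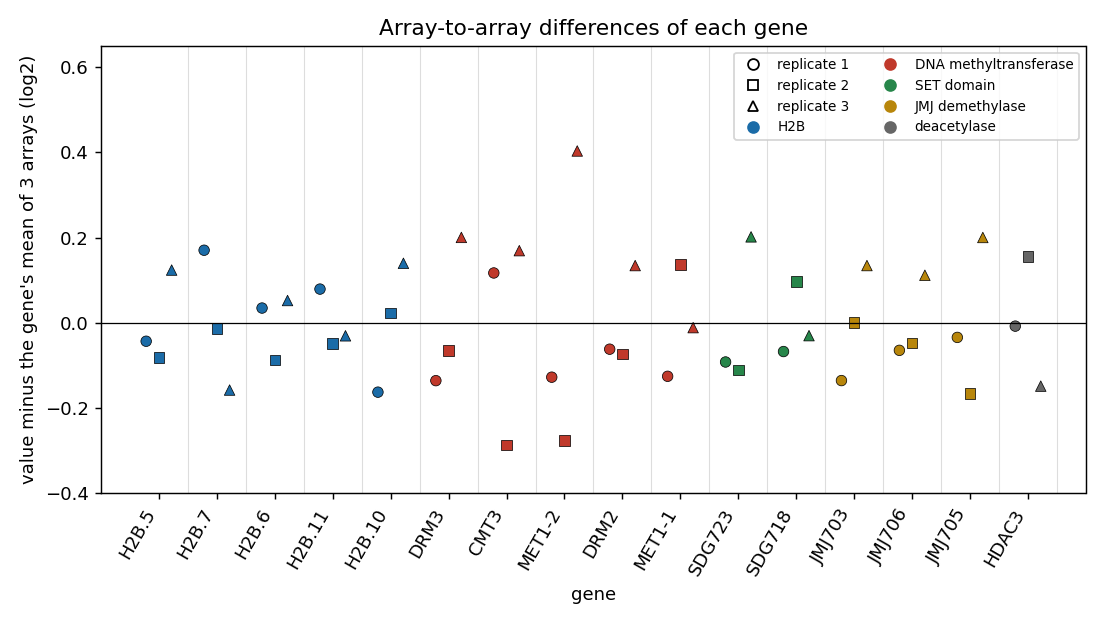
Difference of each array from the gene's own mean (vertical axis, log2) for each gene, with markers and colours as in the plot of values. MET1-2 spreads widest, with replicate 3 on top, CMT3 has replicate 2 apart from the other arrays, and H2B.7 and H2B.10 show the arrays in opposite order.

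Most of these genes were highest in the same sample. Of the 15 genes above the ceiling, 11 were highest on replicate 3, against 52.5% of all 14556 genes above it, and 8 were lowest on replicate 2, against 39.0%. Some of these positions rest on small gaps. DRM2, SDG723, H2B.11 and H2B.5 were lowest on replicate 2 by 0.01 to 0.04 log2, and the other genes lowest there by more. H2B.6 was highest on replicate 3 by 0.02 log2, the narrowest gap among the genes highest there. The 2 genes highest on replicate 1 were H2B.7 and H2B.11, where 23.2% of all genes above the ceiling were highest, and the 2 highest on replicate 2 were MET1-1 and SDG718, against 22.6%. Replicate 1 was lowest for 6 genes, against 38.4%, and replicate 3 for H2B.7 alone, against 20.6%. Replicate 3 exceeded the mean of the other arrays by a median of 0.20 log2 over the 15 genes and by 0.08 over all genes above the ceiling. Replicate 2 differed from the mean of the others by a median of -0.10, against -0.04. Against replicate 1 alone, with replicate 3 left out, this median was -0.02, against 0 over all genes above the ceiling, so the low position of replicate 2 rests on replicate 3. Replicate 3 was higher than replicate 1 for 13 of the 15 genes and higher than replicate 2 for 12, where it was higher for 65.5% and 65.4% of all genes above the ceiling. When the deposited values were quantile-normalized again, 11 of the 15 genes were still highest on replicate 3 while the share over all genes was 41.6%, and the median excess was 0.12 against 0.03. A sample set against the others of its own group is no comparison of conditions, and with 15 genes these counts are a description of the arrays.

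**Figure D3:**
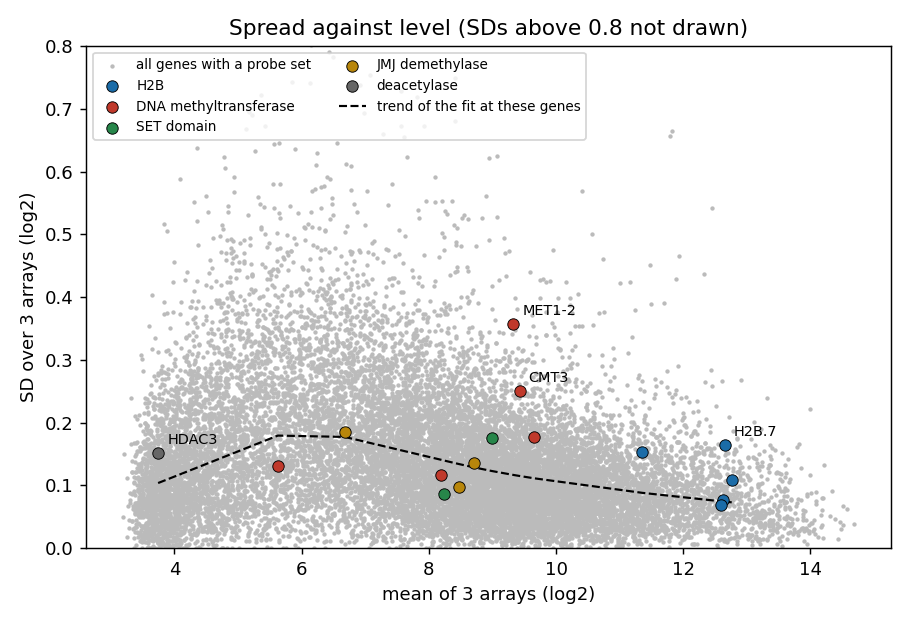
SD over the 3 arrays (vertical axis, log2) against the mean of the 3 arrays (horizontal axis, log2) for all genes with a probe set in grey and the 16 genes in colour, with the trend of the fit at these genes as a dashed line. MET1-2 and CMT3 have the largest SDs, 0.36 and 0.25, and remain within the cloud of all genes.

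The family counts below stand beside 52.5% of all genes above the ceiling that were highest on replicate 3, and each family is small. By family, the median excess of replicate 3 was 0.25 log2 for DNA methyltransferases, with 4 of 5 genes highest there, and 0.20 for JmjC demethylases, with 3 of 3. For the SET domain genes it was 0.13, with 1 of 2 highest there, as SDG718 differed from the other arrays by -0.04. For H2B it was 0.08, the value of all genes, with 3 of 5 genes highest there and single genes between -0.24 and 0.21. Whether the families differ was not tested, since 3 arrays of a single group allow no such test.

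Cell division genes were also mostly highest on replicate 3, and none of them passed the variance test (limma, every adjusted p 0.94 or above). From symbols of replication proteins and of cyclins and their kinases, such as PCNA, MCM, ORC, RPA and CYCB, 38 genes with a probe set were found. The ceiling was exceeded on every array by 35, against 81.3% of all genes, and on none by 3, against 15.4%. Of those 35, 30 were highest on replicate 3 and 24 lowest on replicate 2, against 52.5% and 39.0% of all genes above the ceiling. The median differences from the other arrays were 0.26 and -0.21, against 0.08 and -0.04 over all genes above it. Replicate 1 differed by a median of -0.03, against -0.04 over all genes above the ceiling. For the 15 genes described the medians on replicates 1 and 2 were both -0.10, so the low arrays were not the same. MCM7 (LOC4352514), a subunit of the replicative helicase, read 9.03, 8.79 and 9.29, the same order of arrays as MET1-2. The order was not shared by all: PCNA (LOC4331062), the sliding clamp, read 11.43, 11.25 and 11.32, highest on replicate 1. This was the order of arrays in H2B.11, where replicates 2 and 3 lay only 0.02 log2 apart. In bulk samples a smaller share of dividing cells and less of these RNAs per cell cannot be told apart, and the part of either in the differences above was not tested.

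A list of chromatin genes outside the naming rule matched 7 genes with a probe set. All 7 exceeded the ceiling on every array, as did 81.3% of all genes. On replicate 3, 6 of the 7 were highest, against 52.5% of all genes above the ceiling, and 6 were lowest on replicate 2, against 39.0%. The median differences from the other arrays were 0.26 and -0.23 log2, and 7 genes make these counts a description only. None passed the variance test (limma, lowest unadjusted p = 0.12, lowest adjusted p = 0.94). FAS2 (LOC4344464), a subunit of the assembly factor that places new histones behind the replication fork, read 7.75, 7.23 and 7.77, with replicate 2 low as in CMT3. CENH3 (LOC4339159), the histone H3 variant of centromeres, read 9.16, 8.96 and 9.32, and MSI1 (LOC4333540), a WD40 protein that serves both the assembly factor and the Polycomb complex, read 11.12, 10.96 and 11.22. LHP1 (LOC9268323), a reader of H3K27 methylation, read 9.61, 9.49 and 9.84, and DNG701 (LOC4338940, also ROS1C), a DNA glycosylase that removes methylated cytosine, 8.03, 7.96 and 8.34. ELP3 (LOC4336205), the catalytic Elongator subunit, read 9.67, 9.50 and 9.78. The exception to the order was SWI3C (LOC4349954), a subunit of SWI/SNF remodelling complexes, with 9.32, 9.01 and 8.94, highest on replicate 1 and lowest on replicate 3.

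**Figure D4:**
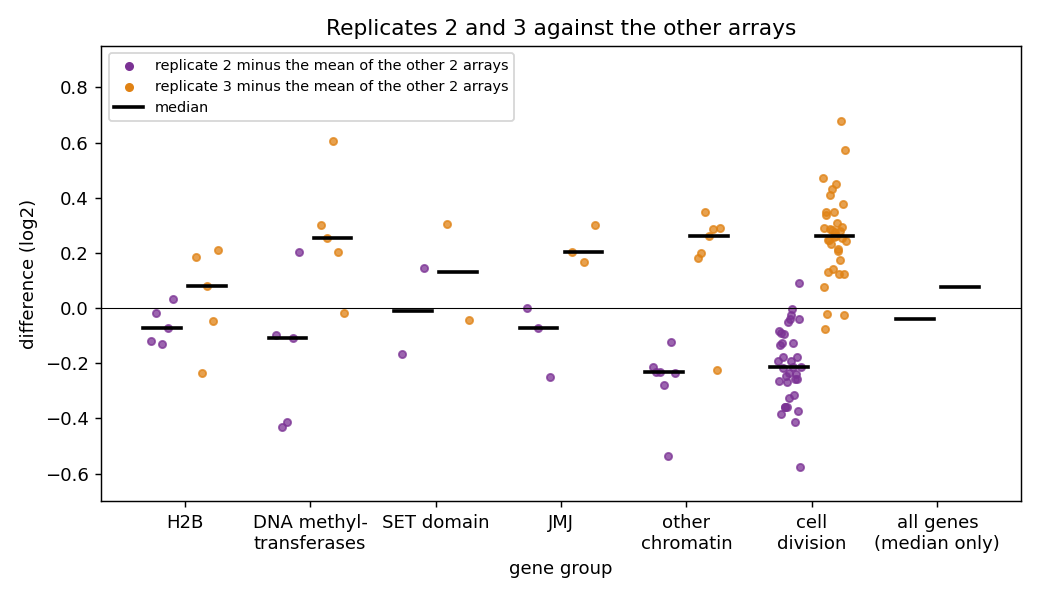
Difference of replicate 2 (purple) and of replicate 3 (orange) from the mean of the other 2 arrays (vertical axis, log2) for single genes above the ceiling by group, with black bars for medians; all genes above the ceiling are given by their medians alone, -0.04 and 0.08. Cell division genes and the other chromatin genes lie mostly below 0 on replicate 2 and above 0 on replicate 3, DNA methyltransferases range from -0.43 to 0.20 on replicate 2 and from -0.02 to 0.61 on replicate 3, and H2B genes lie on both sides of 0 on either array.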

How the data were processed

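RNA of 3 shoot-tip samples (6 ug of total RNA each, biotin-labelled, per the labels' protocols) was hybridized to Affymetrix arrays. The values the authors deposited are log2 signals from RMA, a robust average over the probes of a set, and Affymetrix Expression Console is named as the software, per the submitters' processing notes. No version, setting or genome build is given in the sources used here. RMA quantile-normalizes arrays, which removes overall differences in brightness, and compresses values near background. No scanner files were used, and the number of arrays limits the precision.

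Of 57381 probe sets, 123 controls were left out, and 22436 were paired with 1 gene, 95 with several, which named no gene. The probe set with the highest mean stood for a gene. The test of variance used limma 3.58.1 (R 4.3.3): intercept-only fit over 57258 probe sets, trended robust eBayes, one-sided F test of the ratio of each variance to its prior with the shared prior degrees of freedom (3.65), since the robust fit lowers those of the most variable probe sets, and Benjamini-Hochberg adjustment at 0.05. The test was tried first on simulated data, in which all but a widened subset of probe sets had the spread of the trend. Real variances scatter around the trend, so that trial does not show how often the test errs on these arrays. Figures and counts used Python 3.11.15 with pandas 2.3.3.

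All 16 genes are named. The naming rule, the genes, the lists and the ceiling were chosen with earlier results of these data known. From the list of other chromatin genes 2 namesakes were left out for their annotation: LSD1, a zinc finger gene, and NAP1, an actin regulator. Alternatives were the mean of all probe sets, no _x_at or _s_at sets, the array median as ceiling, renewed quantile normalization, values below the ceiling set to it, a filter on dim probe sets, eBayes without the robust option, and leaving out each replicate. The labels call the samples biological replicates without saying how plants were divided among them, so the spread between these samples may be technical in part. Each p-value sets a probe set's spread against the trend at its level, so a spread common to all probe sets does not show in it.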

Additional observations from a re-analysis of the deposited data

Results flagged for a closer look

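A signal outside the genes described stood out in 2 probe sets that the annotation pairs with no gene, and whose identifiers carry the same cluster number as the probe sets of H2B.6 and H2B.10. They read 12.13, 12.03 and 12.20 (mean 12.12) and 11.84, 11.68 and 11.94 (mean 11.82) on replicates 1, 2 and 3, well above the control ceiling on all arrays. Both were lowest on replicate 2 and highest on replicate 3, the order seen in H2B.6, where replicates 1 and 3 lay only 0.02 log2 apart. They were given no gene name, and what they bind was not tested.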

How the results depend on the processing

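Under the alternatives run, counts over the 16 genes stayed within 1.5 times of those reported, except the count at an unadjusted p under 0.05. That count, 1 gene in the reported limma test, was 0 without the robust option and with each replicate left out. Medians moved by less than the spread between replicates in the same alternatives, but medians of single arrays depended on replicate 3. The count above the ceiling on every array was 14 or 15 (14 without _x_at and _s_at probe sets, where H2B.7 was lost), and 1 gene lay below it throughout. The variance test called 0 of the genes in each alternative, including the 28629 probe sets above the median, of which 51 passed, and the lowest adjusted p among the genes ranged from 0.85 to 0.94 (limma). Over all probe sets, 1393 had an unadjusted p under 0.05 with the robust fit and 545 without it. Leaving out each replicate gave 12 to 13 genes highest on replicate 3 and 9 to 12 lowest on replicate 2 of 15, where each remaining pair of arrays put 65.5% of all genes higher on replicate 3 and 49.8% lower on replicate 2 than on replicate 1. With a replicate left out, the median SD lay between 0.09 and 0.13 (0.09 without replicate 3, against 0.14 reported). The median of replicate 1 against the rest lay between -0.17 and 0.01, crossing 0 without replicate 3, that of replicate 2 between -0.15 and -0.01, the latter without replicate 3, and that of replicate 3 between 0.15 and 0.17. Levels moved by more than their SD for DRM3 (7.54) and SDG723 (6.00) with the mean of all probe sets, and for JMJ706 (8.31) without its _x_at set. The counts of arrays as highest or lowest, and the alternatives for them, were chosen after seeing the data. No paired analysis was possible because there is a single group. Signal over background limits HDAC3, which has an upper bound only, and MET1-1.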
